A study of Mus musculus with 12 samples.

Results

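Thymocytes lacking the RNA-binding proteins ZFP36L1 and ZFP36L2 were compared, across all genes, with control thymocytes at the DN3a stage, just before beta selection. The groups were defined by the sample labels alone and held 8 of the 12 libraries of the series, all C57BL/6 pre-T cells sorted from thymus. The 4 DN3a libraries came from mice with the genotype Zfp36l1fl/fl, Zfp36l2fl/fl and no Cre. The 4 double conditional knockout libraries (DCKO) came from mice with the same floxed alleles plus CD2cre, a Cre recombinase driven by CD2 sequences in lymphocytes, and the labels call the cells DN3 or DN3-like. The other 4 libraries were control DN3b cells, the stage just after beta selection, with the genotype of the DN3a mice; their levels are given for orientation. Only the DCKO cells carried Cre, so effects of Cre and of the deletion cannot be told apart. The labels do not split the DCKO cells into DN3a and DN3b, so effects of stage and of the deletion cannot be told apart either. No label gives the age of the mice, the number of mice behind each library or the sort gates, so p-values measure the spread between these biological replicates as labelled.

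ZFP36L1 and ZFP36L2 are zinc finger proteins that bind AU-rich elements in the 3′ untranslated region (3′UTR) of messenger RNAs and recruit deadenylases, which shorten the poly(A) tail and lead to decay. DN3 thymocytes rearrange the T cell receptor beta locus. DN3a cells are mostly small and resting, and cells with a productive beta chain, which pairs with the pre-T alpha chain, pass beta selection, enlarge and divide as DN3b cells. Entry into S phase uses E-type cyclins and E2F transcription factors, while FOXO factors and their targets mark resting lymphocytes.

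The deleted genes checked the labels. Zfp36l1 was at 43.9, 33.2, 27.1 and 31.6 CPM (counts scaled to a common library size) in the 4 DN3a libraries and at 1.65, 1.64, 2.25 and 3.8 CPM in the 4 DCKO libraries. Zfp36l2 was at 341, 555, 585 and 685 CPM in DN3a and at 45.4, 49.3, 87.9 and 72.9 CPM in DCKO. The groups were far apart for both genes. Log2 fold changes of DCKO over DN3a are given here and below with a standard error derived from the test statistic. They were -3.86 ± 0.34 for Zfp36l1 (adjusted p = 4.03e-06) and -3.08 ± 0.26 for Zfp36l2 (adjusted p = 3.71e-06). No label places the floxed segments, so remaining counts may lie outside them. Zfp36, for the related protein tristetraprolin, was at 1.36 ± 0.71 CPM (SD, n = 4) in DN3a and 1.98 ± 0.317 CPM (SD, n = 4) in DCKO, and its difference of 0.55 ± 0.30 did not pass the test (adjusted p = 0.127).

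The 12 libraries held 28479157 to 45975678 counts. A single feature took 9.02% of DCKO library 1, against 2.61% or less for the leading feature of any other library. The sum over 13 pre-T cell identity genes, among them Ptcra, Rag1 and Bcl11b, was 8118 to 11279 CPM in DN3a and 9000.4 to 13870.0 CPM in DCKO. Of markers of other cells, the endothelial sum of 20 genes was 139.5 to 178 CPM in DN3a and 83.5 to 163 CPM in DCKO. Most of it was Pecam1, which leukocytes also express. Of the 20 genes, 5 passed the filter on low counts, of which 1 was higher and 2 lower in DCKO, and 6, among them Sox17, Robo4 and Clec14a, had no count in the DCKO libraries. The 1 that was higher, Egfl7, a secreted protein gene of endothelium, was at 1.45, 2.26, 2.72 and 3.87 CPM in DN3a and 5.89, 4.4, 6.51 and 9.41 CPM in DCKO. The B cell sum of 13 genes was lower in DCKO (22.3 to 27.4 against 49.1 to 63.2 CPM), carried by Cd79b, and so was the thymic stroma sum (85.6 to 106 against 233 to 288 CPM), where Krt5 was near 0. The NK and innate-like sum of 16 genes was higher, at 290.0 to 500.5 against 159 to 279 CPM, mostly through Gzma. The early thymic progenitor sum of 15 genes was also higher, without overlap, at 113 to 159 against 74.8 to 103 CPM. Of its 12 members tested, 5 were higher, among them Ly6a, for the surface protein SCA-1 (log2 fold change 1.62 ± 0.30), and 2 lower. These shares were 41.7% and 16.7%, beside 30.7% and 29.5% of all genes tested. The sum averaged 87 CPM in DN3a and 142 CPM in DCKO, and Ly6a alone 22.6 and 69.6 CPM, so Ly6a made up most of the gain. The myeloid, dendritic, erythroid, gamma-delta and double-positive sums overlapped between the groups. In DN3b the B cell sum averaged 21.4 CPM and the thymic stroma sum 116 CPM, against 24.1 and 95.1 CPM in DCKO. The NK and innate-like sum averaged 492 CPM in DN3b and 409 CPM in DCKO, with Gzma at 469.6 and 372 CPM. Egfl7 averaged 12.2 CPM in DN3b and 6.55 CPM in DCKO. The early thymic progenitor sum averaged 80.3 CPM in DN3b, below the 142 CPM of DCKO. Within the myeloid list, S100a8 and S100a9, calprotectin genes of granulocytes chosen after their values were seen, had 1 and 2 counts over the DN3a libraries and 121 and 215 over the DCKO libraries, nearly all in DCKO libraries 1 and 4, while Lyz2 averaged 23.8 CPM in DN3a and 9.26 CPM in DCKO, a call lost when any 1 of 6 libraries was left out. Their part in the results below was not tested, and in bulk RNA fewer cells of a type and less RNA per cell cannot be told apart.

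Of 13944 genes tested, 8391 (60.2%) differed between DCKO and DN3a at an adjusted p of at most 0.05. In DCKO, 4275 genes (30.7%) were higher and 4116 (29.5%) lower. The falls were larger: 1526 genes (10.9%) were higher and 2172 (15.6%) lower by at least 2-fold, and 24 were higher and 170 lower by at least 8-fold. For 7655 genes (54.9%) the DCKO and DN3a libraries did not overlap. The split depended on scaling. With upper quartile scaling the median log2 fold change of all genes moved from -0.04 to -0.26, and 3119 genes were higher and 5528 lower, so 36.1% of the calls were higher in place of 50.9%. Without DCKO libraries 1 and 2, 3423 genes were higher and 3209 lower. In the authors' deposited table of this comparison, 8711 genes passed the same threshold, and 8082 of these were called here in the same direction, 96.3% of the calls here and 92.8% of theirs. DN3b differed from DN3a in 7334 genes (52.6%; 9233 on those 8 libraries with paired replicate numbers), and DCKO from DN3b in 2635 (18.9%); these comparisons share libraries.

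**Figure D1:**
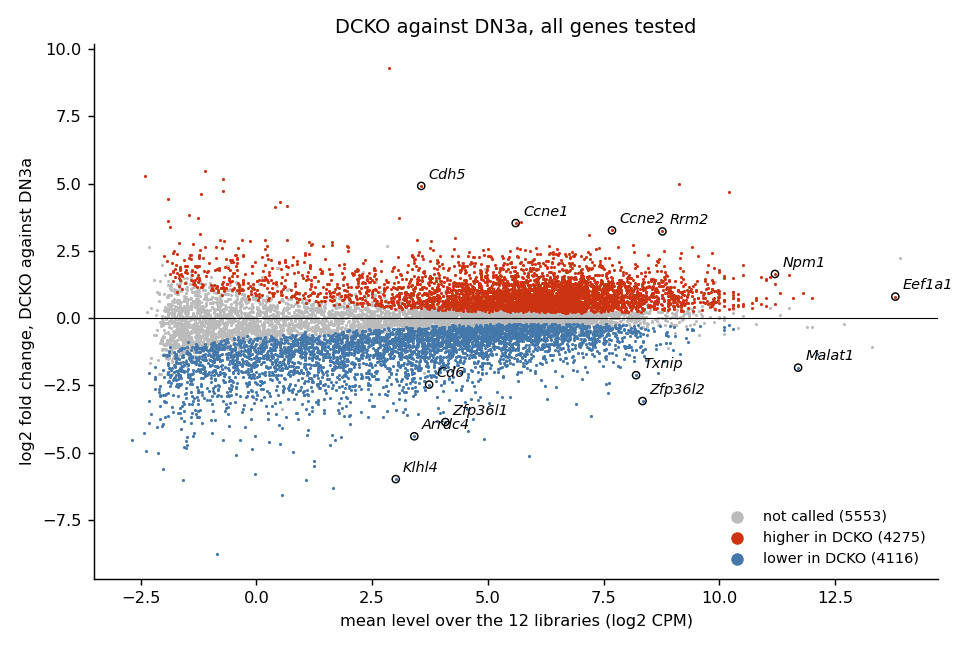
Log2 fold change of DCKO over DN3a (vertical) against mean level over the libraries in log2 CPM (horizontal), 1 point per gene tested, coloured by the test result. More genes lie far below 0 (170 lower by at least 8-fold) than far above it (24).

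Among genes meeting the naming rule, Cdh5 had the largest rise. Amounts given after "rose by" and "fell by" are log2 fold changes. Cdh5 is the gene that encodes VE-cadherin, a junction protein best known from endothelium. It was at 0.679, 1.47, 1.54 and 0.552 CPM in DN3a and at 17, 14.9, 40.8 and 58.3 CPM in DCKO. All 4 DCKO libraries were high, with the last 2 above the first 2, and the log2 fold change was 4.91 ± 0.88 (adjusted p = 0.000397). In the DN3b libraries Cdh5 was at 4.17, 1.1, 0.504 and 0 CPM (mean 1.44), which did not pass the test against DN3a (log2 difference 0.44, adjusted p = 0.672, and -0.30 with paired replicate numbers), while DCKO was above DN3b (log2 difference 4.47, adjusted p = 0.00344).

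The genes of the E-type cyclins were both higher in DCKO. Ccne1 encodes cyclin E1, the CDK2 partner that starts S phase, and lies on chromosome 7 at 38097984 to 38107534 (GRCm38, minus strand). It was at 3.81, 5.37, 9.48 and 11.7 CPM in DN3a and at 98.5, 103, 77.3 and 71.8 CPM in DCKO, a log2 fold change of 3.53 ± 0.33 (adjusted p = 5.51e-06). Ccne2, for cyclin E2, was at 23.6, 38.4, 42.4 and 67.4 CPM in DN3a and at 488, 422, 425 and 307 CPM in DCKO, a log2 fold change of 3.26 ± 0.29. Every DCKO library exceeded every DN3a library, as the rule for naming the largest changes required. Against DN3b, Ccne2 was higher in DCKO (log2 difference 1.36, adjusted p = 0.00479), and Ccne1 did not pass the test (log2 difference 0.80, adjusted p = 0.0782).

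Bcat1, which transaminates branched-chain amino acids, had the next largest rise after Cdh5, 3.57 ± 0.37. Rrm2, the regulated subunit of ribonucleotide reductase, was at 36.5, 66.4, 95.6 and 143 CPM in DN3a and at 693, 829.7, 895 and 771 CPM in DCKO (log2 fold change 3.22 ± 0.36). The mitotic kinase gene Pbk rose by 3.09, Cdr2 by 2.97 and Fam72a by 2.85. Ube2s and Ube2c, ubiquitin-conjugating enzymes of the anaphase-promoting complex, rose by 2.71 ± 0.16 and 2.57 ± 0.41. Cdk1 and Ccnb1, the kinase and cyclin of mitotic entry, rose by 2.60 and 2.57, the mitotic kinase gene Plk1 by 2.57, and E2f8, a repressor E2F, by 2.52. DN3a library 1 was the lowest DN3a library for Ccne1, Ccne2, Rrm2, Pbk, Cdc6, Cdk1, Ccnb1, Plk1, Ube2c and E2f8. Levels of Cdk1, Ccnb1, Plk1, Ube2c and E2f8 in DCKO did not pass the test against DN3b, where they averaged 189, 206, 78, 123 and 68.8 CPM (log2 differences 0.51, adjusted p = 0.278; 0.23, adjusted p = 0.687; -0.24, adjusted p = 0.686; 0.06, adjusted p = 0.935; and 0.31, adjusted p = 0.608). Ube2s, Pbk and Cdr2 were higher in DCKO than in DN3b, by 1.11, 1.08 and 1.19 on the log2 scale. Bcat1, Rrm2 and Fam72a did not pass that test (adjusted p = 0.329, 0.0761 and 0.0506).

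**Figure D2:**
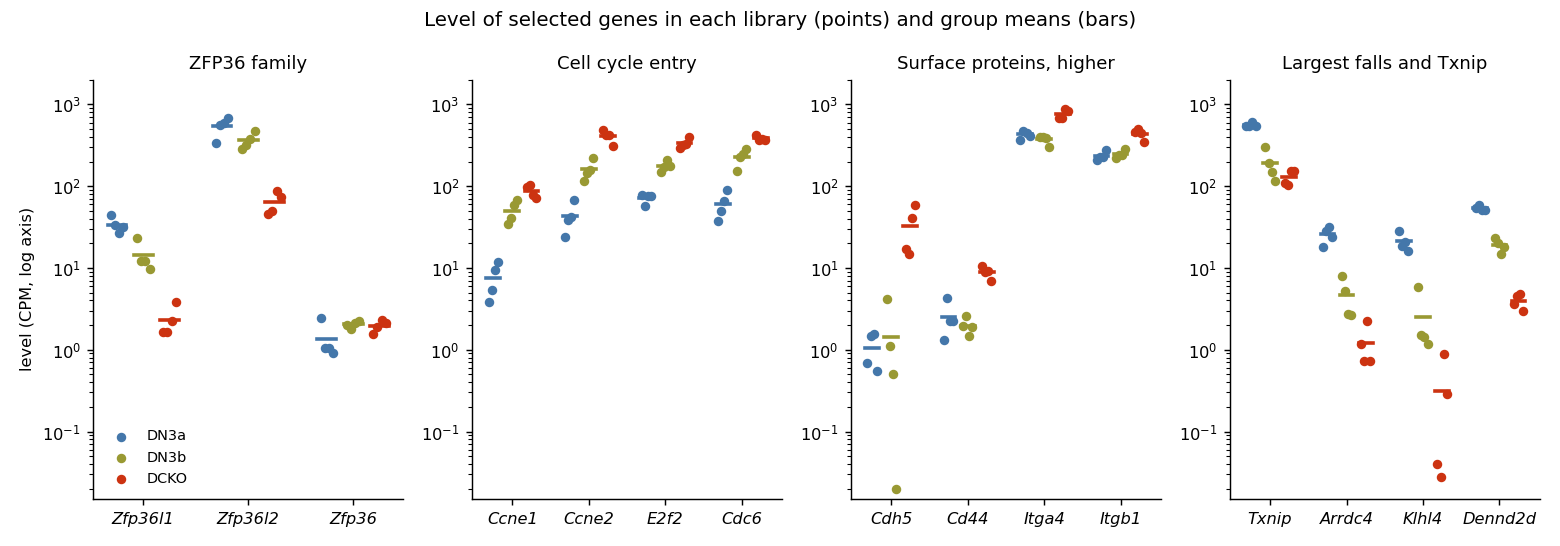
Level of selected genes in each library, in CPM on a log axis, with DN3a, DN3b and DCKO libraries as points and group means as bars; levels below 0.02 CPM are drawn at 0.02. Zfp36l1 and Zfp36l2 are lowest in DCKO, and every DCKO point of Cdh5 lies above all DN3a and DN3b points.

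Under the same rule, Klhl4, a kelch-family gene, had the largest fall. It was at 28.6, 18.8, 20.9 and 16.2 CPM in DN3a and at 0.0403, 0.0278, 0.889 and 0.287 CPM in DCKO, a log2 fold change of -5.98 ± 0.77 (adjusted p = 3.78e-05). Arrdc4, an arrestin-domain relative of TXNIP that restrains glucose uptake, was at 17.9, 28.6, 31.9 and 24.2 CPM in DN3a and at 1.17, 0.724, 2.22 and 0.734 CPM in DCKO (log2 fold change -4.39 ± 0.45). Dennd2d, a regulator of RAB GTPases, was at 54.5, 58.7, 50.6 and 51.8 CPM in DN3a and at 3.59, 4.51, 4.86 and 3 CPM in DCKO (log2 fold change -3.75 ± 0.18, adjusted p = 2e-07). Dennd2d was even within both groups. In DN3b these 3 genes averaged 2.5, 4.65 and 19 CPM, between the groups, and each was lower in DCKO than in DN3b (log2 differences -2.91, -1.93 and -2.25).

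Further large falls came from genes with diverse known roles. Cdh23, a cadherin of inner ear hair cells, fell by 4.18 ± 0.65, from 117, 35.7, 40.5 and 42.5 CPM in DN3a, where the first library was far above the others. Neb, for the muscle protein nebulin, fell by 3.82, Nckap5 by 3.69, the relaxin receptor gene Rxfp1 by 3.59, the zinc finger gene Tshz2 by 3.55 and Hsd11b1, which activates glucocorticoids, by 3.54. Baiap3 fell by 3.48, Il34, a ligand of the CSF1 receptor, by 3.47. Zfp827 fell by 3.46, the potassium channel gene Kcnh3 by 3.40 and Gprin3 by 3.37. Zfp827, Kcnh3 and Gprin3 were also lower in DCKO than in DN3b, with log2 differences of -2.14, -2.17 and -1.91. The other genes of this paragraph did not pass that test (adjusted p from 0.0633 for Baiap3 to 0.512 for Hsd11b1).

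**Figure D3:**
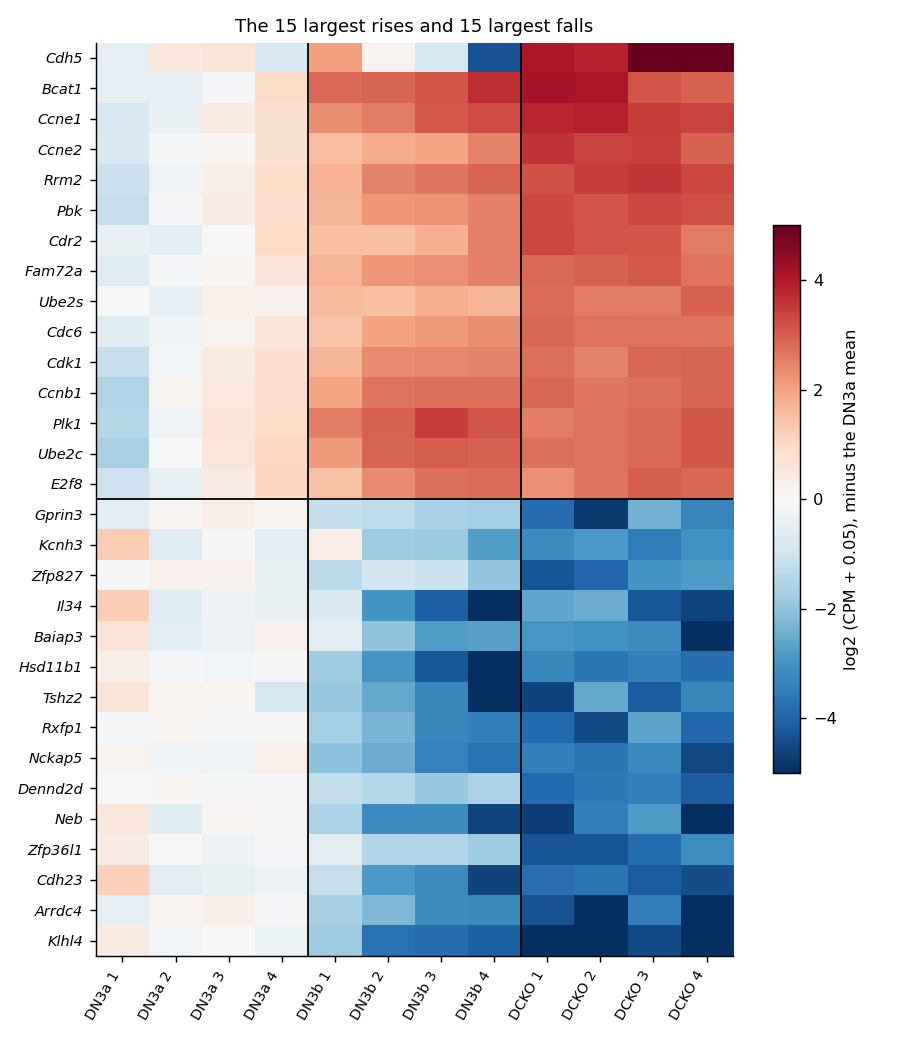
Level of the 15 genes with the largest rises and the 15 with the largest falls in each library, as log2 (CPM + 0.05) minus the mean of the DN3a libraries, with colours saturating at 5. DN3b libraries lie between DN3a and DCKO for many of these genes, and Cdh5 is raised in all 4 DCKO libraries and in 1 DN3b library.

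The largest gains in CPM under the same rule included that of Eef1a1, which brings tRNAs to the ribosome. It was at 9408, 8788, 10334 and 10128 CPM in DN3a and at 19726, 16682, 15345 and 15512 CPM in DCKO (log2 fold change 0.80 ± 0.12). The histone chaperone genes Ptma and Npm1 rose by 1.59 and 1.64, the HSP90 genes Hsp90ab1 and Hsp90aa1 by 0.95 and 1.52, and Eif4a1, the helicase of translation initiation, by 1.54. Atp5b, of the mitochondrial ATP synthase, rose by 1.42, Tubb5, a tubulin, by 1.44, Actb, an actin, by 0.74 and Top2a, the topoisomerase of dividing cells, by 1.96. Of these genes only Eif4a1 passed the test between DCKO and DN3b (log2 difference 0.715, adjusted p = 0.00207). For the others the adjusted p ran from 0.0802 (Atp5b) to 0.93 (Tubb5).

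The largest losses in CPM, besides Zfp36l2, began with the nuclear noncoding RNA Malat1. It was at 6316, 7212, 5621 and 5398 CPM in DN3a and at 1209, 1650.0, 2211 and 1769 CPM in DCKO (log2 fold change -1.84 ± 0.26). Txnip, a brake on glucose uptake, was at 539, 546, 615 and 546 CPM in DN3a and at 108, 103, 154 and 152 CPM in DCKO (log2 fold change -2.12 ± 0.25). Il2ra, which encodes CD25, a marker that defines DN3 cells, was at 599, 554, 516 and 946 CPM in DN3a and at 194, 299, 289.9 and 115 CPM in DCKO (log2 fold change -1.54 ± 0.30). The groups were apart for all 3 genes, and none of the 3 passed the test between DCKO and DN3b. The histone deacetylase gene Hdac4 fell by 1.59 ± 0.37, the lysosomal genes Ppt1 and Pld4 by 1.19 and 2.77, the helicase gene Ddx17 by 0.88, the glycosyltransferase gene Ogt by 0.92 and Pag1, an adaptor that restrains SRC-family kinases, by 0.91. From Hdac4 to Pag1, none passed the test between DCKO and DN3b either (adjusted p from 0.139 for Pag1 to 0.991 for Hdac4).

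Gene lists are described by the number of members called, beside 30.7% higher and 29.5% lower among all genes tested. Comparisons with DN3b are given for part of the list genes only, so silence on DN3b does not mean that DCKO differed from it. Of 40 genes of replication origins and forks, 40 were higher in DCKO, 34 of them by at least 2-fold, with a median log2 fold change of 1.34. Cdc6, which loads the replicative helicase, was at 37.1, 49, 65 and 90.5 CPM in DN3a and at 419, 371, 375 and 366 CPM in DCKO (log2 fold change 2.66 ± 0.25). Orc6, of the origin recognition complex, was at 33, 39.1, 35.2 and 46.1 CPM in DN3a and at 204, 153, 125 and 143 CPM in DCKO (log2 fold change 2.03 ± 0.17). Tipin, of the fork protection complex, rose by 2.02, the nuclease and helicase gene Dna2 by 1.69 and Pole2, of DNA polymerase epsilon, by 1.54. Cdc6, Orc6 and Tipin were also above DN3b, by 0.74, 0.67 and 0.70.

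Of 25 genes for E2F factors, pocket proteins and the DREAM complex, 19 were higher and 3 lower. E2f2, an activator E2F, was at 77.1, 57.4, 75.9 and 76.2 CPM in DN3a and at 294, 319, 331 and 404 CPM in DCKO (log2 fold change 2.23 ± 0.14), above DN3b as well (log2 difference 0.94, adjusted p = 0.000628). Mybl1 rose by 2.20, E2f1 by 1.71, and the CDK inhibitor genes Cdkn2c and Cdkn2d by 1.51 and 0.67. Tfdp2, an E2F partner, fell by 0.98, the pocket protein gene Rbl2 by 0.49 and Lin37 of the DREAM complex by 0.36. The Lin37 call was lost when any 1 of 6 libraries was left out, and also on the 8 libraries of the comparison alone.

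Promoters were then searched for E2F-type motifs. Promoters of 300 bases, from 250 before to 50 after the gene start, came from RefSeq (GRCm38.p6) and matched 9780 of the genes tested by symbol. They were searched on both strands for the E2F-type motifs TTTCCCGC, TTTGGCGC, TTTCGCGC and TTTGCCGC, matches of which can overlap. A motif was found in 4.88% of these promoters, in 7% of those of higher genes, 2.99% of those of lower genes and 4.42% of those of genes not called. Among genes higher by at least 2-fold the share was 8.68%, and by at least 4-fold 5.93% (8 of 135). Among genes lower by at least 2-fold it was 2.33%. The Ccne1 promoter held 0 motifs. A motif was present in 14 of 31 promoters of the replication genes and in 6 of 18 of the E2F and DREAM genes. All 40 replication genes were higher, so their share cannot be set against members that did not rise. A match describes letters and is not evidence of binding. Of the replication genes with a motif, the 6 with the largest rises are shown, read 5′ to 3′ on the gene's strand, with the motif or its reverse complement in capitals.
Cdc6 (chr11:98908004-98908029, plus strand): cggtggagaGCGGGAAAtcgcctggg
Clspn (chr4:126556992-126557017, plus strand): cgcgtctggGCGCGAAAgctcgaact
Orc1 (chr4:108579418-108579443, plus strand): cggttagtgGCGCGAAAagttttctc
Pole2 (chr12:69228164-69228189, minus strand): tcggcggtgGCGCCAAAtcgcgaaca
Cdt1 (chr8:122568038-122568063, plus strand): aactaccttTTTGGCGCcatggcgca
Mcm3 (chr1:20820277-20820302, minus strand): acttccgtgGCGGGAAAacttgggaa

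Other nuclear machinery was also mostly higher. Of 33 nuclear pore and transport genes, 32 were higher and 0 lower, with a median log2 fold change of 1.21. Ran, the GTPase that drives nuclear transport, rose by 1.99 ± 0.15, its binding protein gene Ranbp1 by 1.85, its exchange factor gene Rcc1 by 1.85 and Nup88 by 1.20. Of 31 chromatin assembly and high mobility group genes, 25 were higher and 1 (Hdac4) lower; the histone variant gene H2afz rose by 1.86, the histone chaperone gene Nasp by 1.61 and the assembly factor genes Chaf1a and Chaf1b by 1.38 and 1.14. Of 39 spliceosome genes, 35 were higher and 1 lower; Snrpd1 rose by 1.83 and Snrpa1 by 1.48, and Srsf5, a splicing regulator, fell by 0.64. Of 29 DNA methylation and Polycomb genes, 11 were higher and 8 lower, while 9 were higher and 14 lower with upper quartile scaling. Within that list Dnmt1, the maintenance methyltransferase of replicating DNA, rose by 1.13 and Cbx2 by 1.23, while Ezh1, the Polycomb methyltransferase of resting cells, fell by 1.58 and Tet1, which oxidises methylcytosine, by 1.47.

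Of 34 purine and pyrimidine synthesis genes, 28 were higher and 2 lower; Dut, which removes dUTP, was at 73.8 to 149 CPM in DN3a and 514 to 639 CPM in DCKO (log2 fold change 2.36 ± 0.21), Dctpp1 rose by 1.90 and the CTP synthase gene Ctps by 1.83, while Tk2, the mitochondrial thymidine kinase, fell by 1.45. Of 24 serine, one-carbon and ATF4 pathway genes, 17 were higher and 4 lower; the folate enzyme genes Mthfd2 and Shmt1 rose by 2.37 and 1.91 and the stress factor gene Atf4 by 1.18. Of 25 transporters, 15 were higher and 1 lower (13 and 3 with upper quartile scaling). Slc16a1, which carries lactate, rose by 1.74, the transferrin receptor gene Tfrc by 1.62 and Slc7a5, which imports large amino acids, by 1.51. Slc43a1, another amino acid transporter, fell by 0.91 and was below DN3b (log2 difference -1.22).

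Genes for making, folding and degrading proteins followed. Of 23 aminoacyl-tRNA synthetase genes, 22 were higher and 0 lower, with Eef1e1, a cofactor of the synthetase complex, at 30.2, 34, 29.9 and 40.8 CPM in DN3a and 204, 174, 159.8 and 148 CPM in DCKO (log2 fold change 2.35 ± 0.17). Eef1e1 was above DN3b too, by 1.29. Of 37 translation factors, 29 were higher and 3 lower; Eif2s1 and Eif5a rose by 1.56 and 1.55, while Pdcd4, an inhibitor of EIF4A, and Eef2k, an inhibitory kinase of elongation, fell by 0.75 and 0.53. Of 30 chaperones, 26 were higher and 0 lower, with Pfdn4, a prefoldin subunit, rising by 2.28 ± 0.18 and the chaperonin genes Cct7 and Tcp1 by 1.52 and 1.30. Of 35 proteasome subunits, 34 were higher and 0 lower, with a median of 1.09.

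Of 37 mitochondrial ribosome genes, 36 were higher and 0 lower (median log2 fold change 0.89), with Mrpl20 rising by 1.59. Of 36 genes of the TCA cycle and pyruvate entry, 27 were higher and 2 lower (23 and 5 with upper quartile scaling). The aminotransferase gene Got1 rose by 1.94 and the succinate dehydrogenase gene Sdhb by 1.36. Both falls were of kinases that inhibit pyruvate dehydrogenase: Pdk2 was at 7.46, 6.31, 7.42 and 7.34 CPM in DN3a and 0.726, 1.06, 1.59 and 1.85 CPM in DCKO (log2 fold change -2.44 ± 0.38), and Pdk1 fell by 0.30, a call lost when any 1 of 6 libraries was left out.

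**Figure D4:**
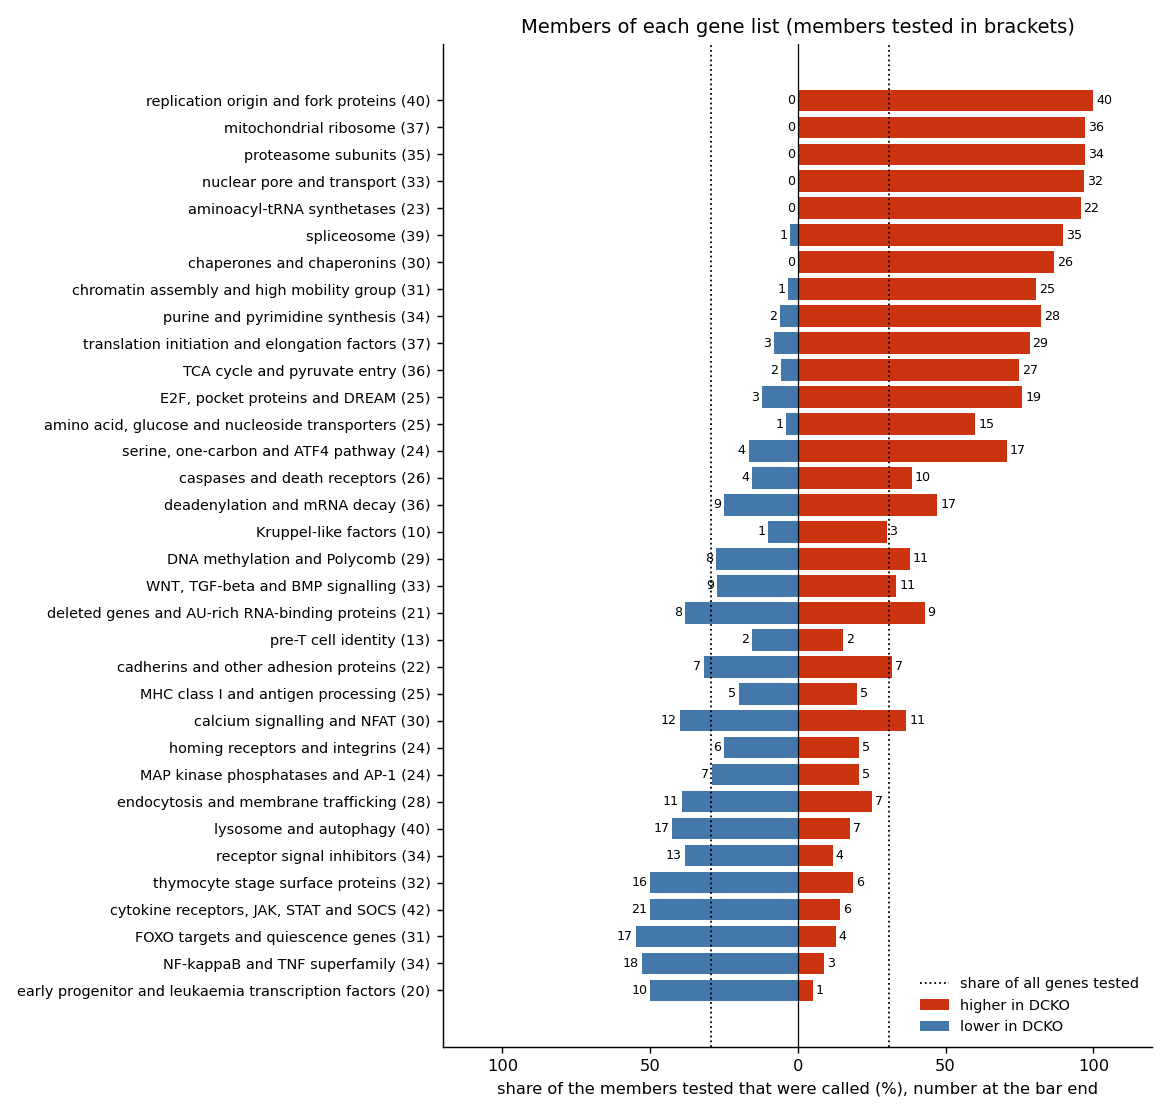
Percent of tested members of each gene list described here called higher and called lower in DCKO, with dotted lines at the shares over all genes tested (30.7% and 29.5%). Replication, nuclear pore, proteasome and mitochondrial ribosome lists reach 97% or more higher with 0 lower, and early progenitor factors, NF-kappaB, FOXO and cytokine receptor lists lie at 50% or more lower.

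Quiescence genes and lysosomal genes were more often lower. Of 31 FOXO targets and quiescence genes, 17 were lower and 4 higher, with a median of -0.56. Besides Arrdc4 and Txnip, Btg1 and Btg2, antiproliferative factors that bind the deadenylase complex, fell by 1.93 and 1.13, and Sesn3, a FOXO target that restrains mTORC1, by 1.82. Btg1 and Btg2 did not pass the test between DCKO and DN3b (adjusted p = 0.98 and 0.873), while Sesn3 was below DN3b (log2 difference -1.03). Klf6 rose by 0.63 and was above DN3b by 1.07. Of 10 Kruppel-like factors, 3 were higher and 1 lower (3 and 2 with upper quartile scaling); Klf16 and Klf10 rose by 1.51 and 1.02 and Klf9 fell by 2.57. Of 40 lysosome and autophagy genes, 17 were lower and 7 higher (24 and 5 with upper quartile scaling); Atg9a fell by 1.42 and the cathepsin gene Ctsc by 0.98, while Gabarapl2, of the autophagosome membrane, rose by 0.77.

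Of 42 cytokine receptor, JAK, STAT and SOCS genes, 21 were lower and 6 higher (29 and 4 with upper quartile scaling). Il7r, the interleukin-7 receptor chain of early thymocytes, fell by 0.91, Jak2 by 0.95, Stat4 by 1.64 and Tgfbr2 by 1.38. Pim3, a kinase gene induced by cytokines, was at 13.7, 7.87, 9.95 and 10 CPM in DN3a and 64.2, 54.8, 50 and 69 CPM in DCKO (log2 fold change 2.52 ± 0.18), and was above DN3b (log2 difference 1.58, adjusted p = 8.74e-05). Flt3 and Tgfbr1 rose by 0.95 and 0.61 and were above DN3b by 0.97 and 1.19.

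Of 34 NF-kappaB and TNF superfamily genes, 18 were lower and 3 higher; Tnfrsf18, which encodes GITR, fell by 2.20, Nfkbiz by 1.51 and the death receptor gene Fas by 0.95. Tnfsf8, the CD30 ligand gene, was at 1.59, 2.67, 2.51 and 2.47 CPM in DN3a and 0.564, 0.696, 0.601 and 0.383 CPM in DCKO (log2 fold change -2.03 ± 0.35), and was below DN3b (log2 difference -2.21). Of 34 receptor signal inhibitors, 13 were lower and 4 higher, while 21 were lower and 3 higher with upper quartile scaling; Ctla4, an inhibitory receptor, was at 110.1 to 172 CPM in DN3a and 7.75 to 42.2 CPM in DCKO (log2 fold change -2.52 ± 0.38), and Cblb, an E3 ligase that damps receptor signals, fell by 1.33, while the RAS inhibitor genes Spred1 and Spred2 rose by 0.87 and 0.86.

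Of 24 MAP kinase phosphatase and AP-1 genes, 7 were lower and 5 higher (9 and 3 with upper quartile scaling), and 12 did not pass. Dusp1 and Dusp4, phosphatases that switch off MAP kinases, rose by 1.30 and 1.43 and were above DN3b by 1.24 and 0.86; the ETS factor gene Elk3 fell by 1.66. Of 30 calcium and NFAT genes, 12 were lower and 11 higher (15 and 8 with upper quartile scaling), a majority that turned in 5 alternatives; Nfatc2 and Nfat5 fell by 2.03 and 1.37, while the calcium pump gene Atp2a2 and the phospholipase gene Plcg2 rose by 1.73 and 1.35. Of 33 WNT, TGF-beta and BMP genes, 11 were higher and 9 lower, while 7 were higher and 15 lower with upper quartile scaling; Tcf7, for the T cell factor TCF-1, and Ctnnb1, for beta-catenin, rose by 0.58 (a call lost with upper quartile scaling) and 0.51, and Id2 fell by 1.22. Of 26 caspase and death receptor genes, 10 were higher and 4 lower, while 7 were higher and 9 lower with upper quartile scaling. Cycs, for cytochrome c, rose by 2.18, and Bbc3, for the cell death protein PUMA, fell by 1.69 and was below DN3b (log2 difference -1.82).

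At the cell surface, of 32 thymocyte stage proteins 16 were lower and 6 higher. Cd44, an adhesion receptor of earlier progenitors, was at 1.33, 4.25, 2.25 and 2.27 CPM in DN3a and 10.7, 8.82, 9.18 and 6.95 CPM in DCKO (log2 fold change 1.81 ± 0.31), and was above DN3b (log2 difference 2.17, adjusted p = 0.000565). Cd6, a T cell costimulatory receptor, was at 12.4, 11.8, 8.36 and 11.2 CPM in DN3a and 2.94, 1.59, 1.62 and 1.82 CPM in DCKO (log2 fold change -2.47 ± 0.24), while DN3b averaged 26.6 CPM. Cd6 was thus lowest in DCKO of the 3 groups (log2 difference from DN3b -3.75, adjusted p = 3.06e-06). Cd37 and Cd84 fell by 2.41 and 1.43, and Cd24a rose by 0.91. Cd8b1, a chain of the CD8 coreceptor, rose by 3.72 from 0.308 to 0.709 CPM to 2.88 to 10.5 CPM but was below DN3b (log2 difference -1.61), and Cd8a rose by 2.70. In the pre-T identity list Rag1, of the recombinase, rose by 1.25 (a call lost without DCKO libraries 1 and 2) and was above DN3b by 2.11, while Cd3d fell by 0.43.

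Of 24 homing receptors and integrins, 6 were lower and 5 higher, while 10 were lower and 4 higher with upper quartile scaling. Itga4 and Itgb1, which pair as VLA-4, were at 369, 477, 451 and 415 and at 207, 226, 227 and 277 CPM in DN3a. In DCKO they were at 684, 675, 873 and 841 and at 458, 499, 448 and 344 CPM, so neither overlapped. The log2 fold changes were 0.84 ± 0.13 and 0.90 ± 0.13, and both were above DN3b, by 1.05 and 0.84. Itgal, of LFA-1, fell by 0.74 and S1pr4, a sphingosine phosphate receptor, by 1.31. Of 22 cadherins and other adhesion genes, 7 were higher and 7 lower; Nrp1 rose by 1.46 and Epcam fell by 2.93. Of 28 trafficking genes, 11 were lower and 7 higher (13 lower and 3 higher with upper quartile scaling), with Vamp1 falling by 2.02 and Rab5a rising by 0.93. Of 25 MHC class I and antigen processing genes, 5 were higher and 5 lower, while 3 were higher and 7 lower with upper quartile scaling. In that list Canx and Calr, chaperones of the endoplasmic reticulum, rose by 1.01 and 0.99.

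Of 20 early progenitor and leukaemia transcription factors, 10 were lower and 1 higher. Erg, an ETS factor, was at 58.4, 39.9, 41.9 and 54.9 CPM in DN3a and 9.31, 9.6, 11.2 and 3.8 CPM in DCKO (log2 fold change -2.52 ± 0.62). Mycn fell by 2.67, and Hoxa7 and Hoxa5 by 2.68 and 2.89, both also below DN3b (log2 differences -2.59 and -2.03). Erg and Mycn did not pass the test between DCKO and DN3b (adjusted p = 0.922 and 0.869). Gfi1b, the 1 member that rose, did so by 2.72 and did not pass that test either (adjusted p = 0.102). Without DCKO libraries 1 and 2, 5 of these factors were lower and 2 higher.

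Among the RNA-binding proteins, the list of 21 with both deleted genes had 9 higher and 8 lower members, and 5 higher and 9 lower with upper quartile scaling; the majority turned in 7 of 17 alternatives. Elavl1, for HuR, which binds AU-rich elements and stabilises RNA, was at 133, 154, 166 and 181 CPM in DN3a and 327, 381, 392 and 333 CPM in DCKO (log2 fold change 1.18 ± 0.15). It was above DN3b by 0.56. Igf2bp3 and Ybx1 rose by 1.75 and 1.34, and Igf2bp2 and Tia1 fell by 1.06 and 0.72. Of 36 deadenylation and decay genes, 17 were higher and 9 lower, while 11 were higher and 12 lower with upper quartile scaling; the exosome genes Exosc8 and Exosc9 rose by 1.18 and 1.17, and the exonuclease gene Xrn1 fell by 0.64.

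The heptamer TATTTAT is a core of the AU-rich elements that ZFP36 proteins bind. It was counted on the sense strand in the longest annotated 3′UTR of 11676 genes tested, and 3471 of these (29.7%) held it. Overlapping copies, as in the Elavl1 site below, were each counted, so a count need not mean separate elements. Each site shown has a single copy in capitals. The deleted genes Zfp36l1 and Zfp36l2, both lower in DCKO, held 3 heptamers each and are left out of the sites shown. Of the other named genes with the most heptamers, 6 sites from genes that rose and 3 from genes that fell are shown with the heptamer in capitals, each read 5′ to 3′ as in the GRCm38 transcripts of GENCODE M21.
Elavl1 (chr8:4285789-4285813, minus strand): catgaaaatTATTTATttatttatt
Mybl1 (chr1:9669678-9669702, minus strand): caaatttatTATTTATatgtttaag
Cd44 (chr2:102813557-102813581, minus strand): gggtgatgcTATTTATctttagtaa
Dusp1 (chr17:26506160-26506184, minus strand): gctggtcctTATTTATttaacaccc
E2f1 (chr2:154560034-154560058, minus strand): tggagcgttTATTTATttatcgagg
Spred1 (chr2:117178245-117178269, plus strand): gcattttcaTATTTATgcactaggt
Nfat5 (chr8:107373507-107373531, plus strand): tatgcctttTATTTATaaagacact
Tet1 (chr10:62810741-62810765, minus strand): tcagttaggTATTTATttgttagtg
Tnfsf8 (chr4:63832607-63832631, minus strand): aaagaaaaaTATTTATtttggctca
Elavl1 held 8 heptamers in a 3′UTR of 4218 bases and Mybl1 held 6 in 2469 bases. Cd44, Dusp1, E2f1, Spred1, Nfat5, Tet1 and Tnfsf8 held 3 each, in 3′UTRs of 690 to 8365 bases. In the shortest annotated 3′UTR of the same genes, Elavl1 held 0, Mybl1 1, and Cd44, Spred1 and Nfat5 0 each, while the other 4 still held 3 each. Ccne1 (531 bases), Rrm2 (914 bases) and Cdh5 (1513 bases) held 0, and Ccne2 (1681 bases) held 1.

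The median log2 fold change was 0.02 for 8205 genes with 0 heptamers, 0.08 for 2247 with 1, 0.06 for 776 with 2 and 0.14 for 448 with 3 or more, and the share of genes called higher ran from 33.8% with 0 to 38.8% with 3 or more. Genes with more heptamers had longer 3′UTRs. In 3′UTRs of 500 to 1500 bases the medians were -0.02, 0.16, 0.22 and 0.32, and over 1500 bases -0.07, 0.02, 0.02 and 0.11. For the reverse complement ATAAATA, of the same AT content, the medians over all lengths were 0.04, 0.12, -0.01 and -0.10. The difference between 3 or more and 0 heptamers, 0.12 over all DCKO libraries, was 0.11, 0.18, 0.20 and -0.01 in DCKO libraries 1 to 4, and it was 0.01 when genes averaging under 3 in log2 CPM were left out. Within length classes, the difference among the genes at 3 or more in log2 CPM remained: the median was 0.12 with 0 and 0.66 with 3 or more heptamers in 3′UTRs of 500 to 1500 bases (29 genes with 3 or more), and 0.04 and 0.16 over 1500 bases (318 genes). Over all lengths, DN3b against DN3a had a median of 0.105 with 0 and -0.154 with 3 or more heptamers. DCKO against DN3b had -0.071 and 0.284. Among genes at 3 or more in log2 CPM, these pairs were 0.196 and -0.102, and -0.031 and 0.294. For ATAAATA over all genes they were 0.083 and -0.201, and -0.049 and 0.125. The comparisons share libraries. All these values are medians over genes, which are not independent replicates, and no test was made.

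**Figure D5:**
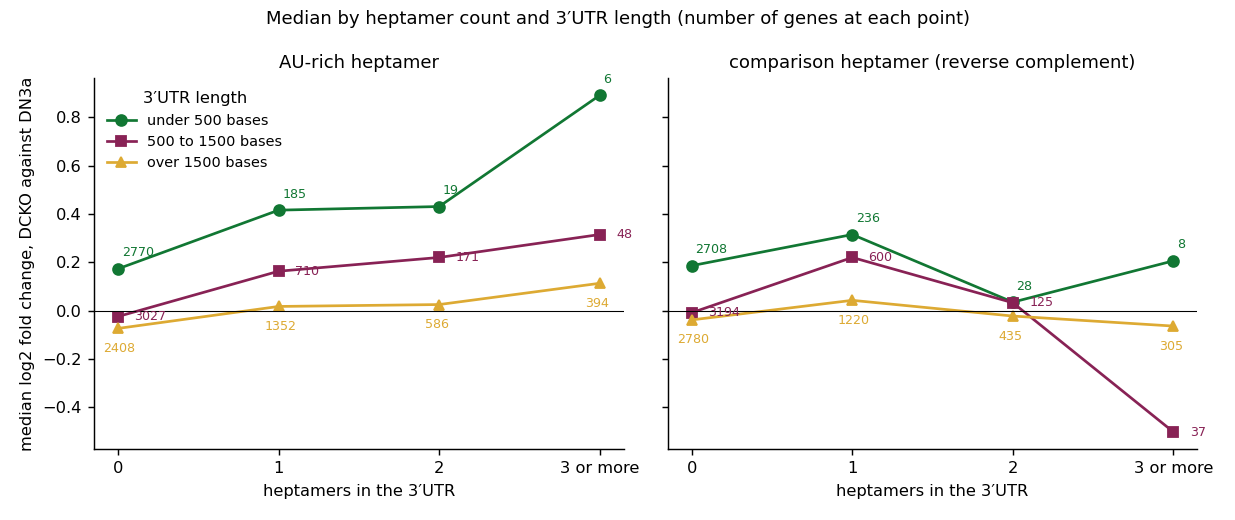
Median log2 fold change of DCKO over DN3a by the number of heptamers in the 3′UTR (0, 1, 2, 3 or more; horizontal), with a line per 3′UTR length class and the number of genes beside each point, for TATTTAT and for the comparison heptamer ATAAATA. With 3 or more TATTTAT the median is above that with 0 in each length class, though under 500 bases it rests on 6 genes, and for ATAAATA it is below that with 0 in the classes of 500 to 1500 and over 1500 bases.

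By annotated type, protein-coding genes were more often higher (4073 of 11751) than lower (3225), and several noncoding types the reverse. Of 324 lincRNAs 140 were lower and 32 higher, of 322 antisense genes 153 were lower and 23 higher, and of 55 sense intronic genes 27 were lower and 0 higher. Of 169 snoRNA genes, 27 were higher and 23 lower, and of 303 processed pseudogenes, 57 were higher and 60 lower. With upper quartile scaling only 3119 genes of all types were higher and 5528 lower, so the 4073 protein-coding rises did not hold there. Counts by type were not made under that scaling. Whether the counting used strand is not stated by any source at hand, so an antisense gene and its partner cannot be told apart. Of 46 T cell receptor V segment genes, 37 were lower and 0 higher, with a median of -2.50; near-identical segments can share reads, so these values are uncertain. Median log2 fold changes by chromosome ran from -0.26 on chromosome 1 to 0.09 on chromosome 10.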

How the data were processed

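The series holds 12 RNA-seq libraries made with a stranded total RNA kit and rRNA removal, per the labels' protocols. The deposited table gives raw read counts per gene, which the authors made with Trim Galore, TopHat2 2.0.12 and HTSeq on GRCm38, per the submitters' processing notes; which annotation release was used, and whether counting used strand, is not given in the sources used here. The authors' deposited table of the comparison, with DESeq2 1.6.3 named in the same notes, gives log2 fold changes and p-values, and was used for the overlap of calls.

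Counts were fitted with edgeR 4.0.16 (R 4.3.3) over all 12 libraries, so that DN3b adds to the estimate of the spread, with group as the only term, TMM scaling, a minimum of 10 counts in edgeR's filter, the quasi-likelihood test and Benjamini-Hochberg adjustment over 13944 genes; 0.05 was the threshold. Every adjusted p printed comes from this edgeR fit, except 0.761 for Cdh5, from a fit on the DN3a and DN3b libraries with a replicate block. Of 43629 genes, 1081 had no symbol and are not named. CPM values use the TMM-scaled library sizes. The code was tested on simulated data with known changes. Alternatives were other scalings, DESeq2 1.42.0, limma-voom (limma 3.58.1), other filters, the 8 libraries alone with and without a replicate block, and libraries left out.

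Named genes were the deleted genes, Zfp36, Ccne1 and Cdh5; the 15 largest rises and 15 largest falls, and the 10 largest gains and losses in CPM, among genes with a symbol called in every alternative, at 10 CPM or more in the higher group and without overlap, leaving out predicted, small RNA, mitochondrial, histone and receptor segment genes; and up to 4 called members of each list in each direction. Members and lists were chosen with earlier results of these data known. Markers of other cells and the sequences shown are named outside this rule. Replicate numbers did not pair DCKO with DN3a or DN3b libraries (not every same-numbered pair of deviations from the group means correlated above 0.1), so those comparisons are unpaired. They paired DN3a with DN3b (correlations 0.354 to 0.564). Some genes and 1 gene list are not reported here.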

Additional observations from a re-analysis of the deposited data

Results flagged for a closer look

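In groups of 4 libraries, 19 of 378 examined had 1 library whose gap to the nearest other, as a share of the group's range, exceeded Dixon's 95% critical value, and chance gives about 1 in 20. DN3a library 1 stood apart for 7 genes: Cdh23 at 117 CPM, Hsd11b1 at 48.1, Cd37 at 38.2, Kcnh3 at 32.8, Il34 at 22.9, Tnfrsf18 at 21.1 and Zfp36 at 2.42 CPM, each the highest of its group. DN3a library 2 was lowest for E2f2 (57.4 CPM) and Pdk2 (6.31 CPM) and highest for Hoxa5 (1.36 CPM). DN3a library 3 was highest for Txnip, at 615 CPM, and DN3a library 4 for Spred1, at 55.7 CPM.

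Among the DCKO libraries, library 1 was highest for Cd6 (2.94 CPM) and lowest for Tcf7 (639.7 CPM), and library 4 was highest for Eif5a (1519 CPM). The summed dendritic cell markers were 449 CPM in DCKO library 4. The leading feature took 9.02% of the counts in DCKO library 1. Lars2, a mitochondrial leucyl-tRNA synthetase gene, took 0.569% in DCKO library 2 and 0.0173% in DN3a library 2. In these libraries the predicted gene Gm42418 was high too, at 1.14% and 0.0395%, against at most 0.00696% in any other DN3a or DCKO library. In DN3b library 1 Gm42418 took 0.0661% and Lars2 0.00211%. The cause was not tested.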

How the results depend on the processing

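The numbers of genes called, higher and lower over all genes stayed within 1.5 times of the values given under all 17 alternatives, while 37 of 90 counts of list members moved by more under at least 1. Leaving out 1 library at a time gave 7622 to 8231 genes called, 3842 to 4210 higher and 3702 to 4063 lower. Of 8391 calls, 5108 held in every alternative. With the replicate number as a block on the 8 libraries, 7648 genes were called, 3708 higher and 3940 lower; deviations of same-numbered DN3a and DCKO libraries did not correlate throughout, so the numbers do not pair them. For DN3b against DN3a, where they do, the block on those 8 libraries, chosen after seeing the data, gave 9233 genes called (7334 without it over 12 libraries) and turned the Cdh5 difference to -0.30 (adjusted p = 0.761). Of 173 named genes called, 164 held in every alternative that tested them; Hoxa5, Cd8a and Bbc3 were each tested in all but 1. Bbc3, Eef2k, Rag1, Spred1 and Tgfbr1 lost their call without DCKO libraries 1 and 2 together, Tcf7 with upper quartile scaling, and Lin37, Lyz2 and Pdk1 without several single libraries. Lin37 and Lyz2 also lost it without DCKO libraries 1 and 2 together, and Lin37 and Pdk1 without the low-count filter. Lin37 lost it further with limma-voom and on the 8 libraries alone, with or without the replicate block. Without DCKO libraries 1 and 2, 6 caspase and death receptor genes were higher, 4 lysosome and autophagy genes were higher, and 3 MHC class I genes were higher and 3 lower. The difference in median log2 fold change between genes with 3 or more and 0 AU-rich heptamers, 0.116, was 0.265 for a longer motif, the nonamer, and 0.006 when genes averaging under 3 in log2 CPM were left out, where within 3′UTRs of 500 to 1500 bases the medians were 0.663 and 0.115, and over 1500 bases 0.155 and 0.0413; the cause was not tested. Low counts limit genes such as Hoxa5 and Tnfsf8, at a few CPM or less.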
